A study of Homo sapiens with 8 samples.

Results

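The genes described here encode the subunits of oxidative phosphorylation, the 5 enzyme complexes of the inner mitochondrial membrane. Their members were chosen by GENCODE symbol alone, as protein-coding genes of the subunit families of complexes I to V. A symbol counted if it was NDUFA, NDUFB, NDUFC, NDUFS or NDUFV followed by digits alone, or SDHA to SDHD. Symbols that began with UQCR, COX4 to COX8, ATP5F, ATP5M, ATP5P, MT-ND, MT-CO, MT-CYB or MT-ATP also counted. The expected counts of a member had to sum to at least 80 over all libraries. Of 19683 protein-coding genes, 99 carried such a symbol and 92 reached the sum. The nuclear genome encodes 79 of them, 36 in complex I, 4 in complex II, 9 in complex III, 12 in complex IV and 18 in complex V. The mitochondrial genome encodes the other 13, with 7 in complex I, 1 in complex III, 3 in complex IV and 2 in complex V. The 7 genes under the sum were mostly forms restricted to other tissues: COX4I2, COX6A2, COX7A1 and COX8C had no count, COX7B2 had 14, COX6B2 had 23 and ATP5MGL, the nearest below the limit, had 57. The nearest above it was MT-ND6 with 1167. All 92 passed the filter on low counts and were tested among 13129 protein-coding genes.

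Total RNA was sequenced after depletion of ribosomal RNA from H929 and KMS11, a pair of human multiple myeloma cell lines that carry the t(4;14) translocation. Cells of each line grew in RPMI 1640 with 10% FBS and received 2 µM fluvastatin or ethanol, its solvent, for 24 h, and each line and treatment had 2 biological replicates. Fluvastatin inhibits HMG-CoA reductase, the rate-limiting enzyme of the mevalonate pathway, and each line is 1 model of the disease rather than a sample of patients. In bulk RNA, fewer cells of a type and less RNA per cell cannot be told apart.

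Complexes I to IV pass electrons from NADH and succinate to oxygen, and complexes I, III and IV pump protons as they do so. Complex V, the ATP synthase, lets the protons back through a rotating ring and makes ATP. Complexes I, III, IV and V each join subunits made from mitochondrial DNA to subunits imported from the cytosol, while complex II is entirely nuclear. The mevalonate pathway also provides the side chains of ubiquinone, which carries electrons between complexes, and of haem A in complex IV.

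The libraries held between 26702515 and 41910446 expected counts. Of 9 plasma cell markers, all were detected in H929, with TPM (transcripts, scaled to a fixed sum per library and by length) summing to 6159 to 7971 per library. In KMS11 the sum was 4580 to 6894 TPM, and CD38 stood at 0.04 TPM or less. JCHAIN gave most of these sums, with 4164 to 6237 TPM in H929 and 3935 to 5973 TPM in KMS11. Single markers moved both ways in H929. SDC1, XBP1, MZB1 and SLAMF7 were lower in both fluvastatin libraries, TNFRSF17, PRDM1, JCHAIN and CD38 were higher, and IRF4 overlapped. The 4 B cell markers summed to at most 0.09 TPM and the 6 T cell and monocyte markers to at most 3.63 TPM, of which CD3E gave up to 3.54 TPM. CD3E was higher with fluvastatin in H929, at 2.92 and 3.54 TPM against 1.49 and 1.59 TPM, and its part in the results below was not tested.

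Before the drug, the levels of the complexes differed between the lines and within them. Per gene length, nuclear members summed to 8687 ± 279 TPM (SD, n = 2) in H929 with ethanol and to 16282 ± 108 TPM (SD, n = 2) in KMS11 with ethanol. The mitochondrially encoded members summed to 4999 ± 167 TPM (SD, n = 2) and 5576 ± 94.7 TPM (SD, n = 2), so that their level was 0.576 and 0.342 of the nuclear sum. The order of the lines turned with the scale for the mitochondrially encoded sum, which on TMM-scaled CPM per kilobase was 10862 and 10533 in H929 against 8102 and 8564 in KMS11, while the nuclear sum was 18019 and 19172 in H929 and 23486 and 25191 in KMS11, a smaller gap than on TPM. Among the nuclear sums, complex V had the largest in each line, at 2835 ± 104 TPM (SD, n = 2) in H929 and 6066 ± 59.0 TPM (SD, n = 2) in KMS11. The 4 genes of complex II made up the smallest, at 282 ± 20.2 TPM (SD, n = 2) and 518 ± 21.0 TPM (SD, n = 2). Complexes I and IV came between, with nuclear sums of 2297 ± 69.3 and 2148 ± 19.2 TPM (SD, n = 2) in H929 and of 3967 ± 197 and 3928 ± 49.4 TPM (SD, n = 2) in KMS11. On these nuclear sums the libraries of complexes I and IV overlapped in KMS11 and not in H929. The mitochondrially encoded genes of complex IV, left out of them, summed to 3630 ± 155 TPM (SD, n = 2) in H929 and 4086 ± 164 TPM (SD, n = 2) in KMS11. In H929 this was more than the nuclear sum of complex V, so the nuclear sums do not give the order of the whole complexes.

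With fluvastatin the shares of the 2 genomes moved in opposite directions in both lines. In H929 the mitochondrially encoded members took 0.611% and 0.588% of all counts with ethanol and 0.71% and 0.809% with fluvastatin. In KMS11 they took 0.474% and 0.480% with ethanol and 0.590% and 0.564% with fluvastatin. In each line both fluvastatin libraries lay above both ethanol libraries. The nuclear members went the other way, from 1.01% and 1.07% of counts to 0.811% and 0.847% in H929, and from 1.36% and 1.41% to 1.26% and 1.31% in KMS11. The ratio of the mitochondrial to the nuclear sum, on the TPM scale, was 0.603 and 0.549 with ethanol and 0.846 and 0.910 with fluvastatin in H929. In KMS11 it was 0.345 and 0.340 with ethanol and 0.473 and 0.440 with fluvastatin. Mitochondrial ribosomal RNA, which is transcribed from the same DNA, moved with it, at 0.135% and 0.128% of counts with ethanol and 0.188% and 0.250% with fluvastatin in H929, and at 0.0458% and 0.0499% against 0.0878% and 0.101% in KMS11. The libraries were depleted of ribosomal RNA, and the part of the depletion in these shares was not tested.

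**Figure D1:**
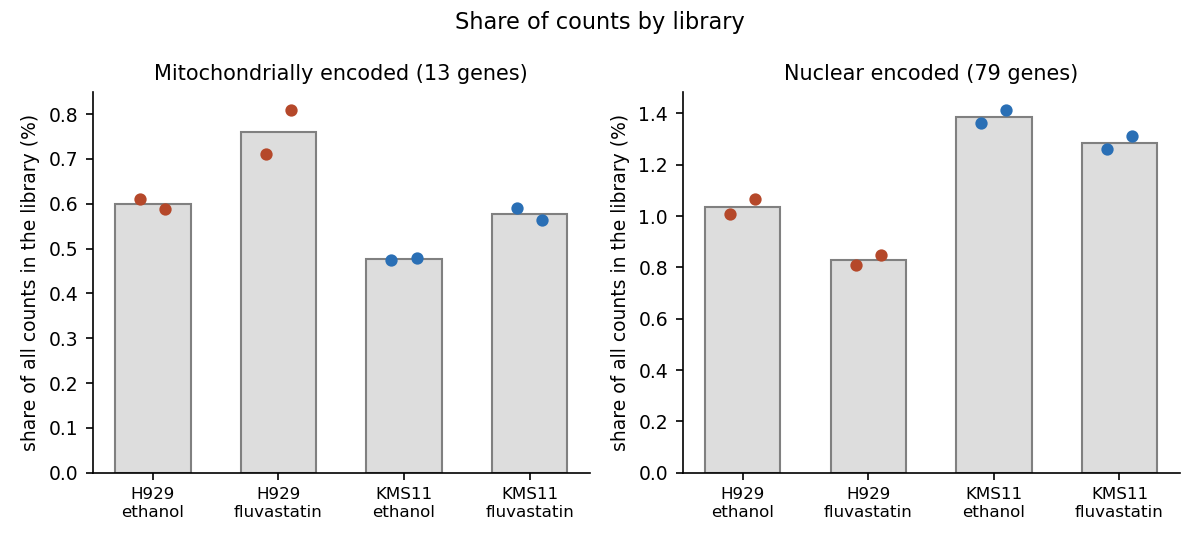
Share of all expected counts in each library (points, 2 per group; bars are means) that came from the 13 mitochondrially encoded genes (left, %) and the 79 nuclear genes (right, %). The mitochondrial share lay above the ethanol libraries in all 4 fluvastatin libraries of the same line, and the nuclear share lay below.

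In H929, the nuclear genes of all 5 complexes held members that fell, and no nuclear member rose. Of 79 nuclear members, 42 fell and 0 rose in edgeR's quasi-likelihood test at an adjusted p of 0.05, where 19.3% of all genes tested fell and 22.7% rose. A further check without a model gave 62 of the 79 with both fluvastatin libraries below both ethanol libraries, a pattern that 33.5% of all genes showed. The median log2 fold change was -0.37 for nuclear members against 0.02 for all genes tested. By complex, 17 of 36 nuclear members fell in complex I, 2 of 4 in complex II, 8 of 9 in complex III, 4 of 12 in complex IV and 11 of 18 in complex V, with medians of -0.37, -0.17, -0.48, -0.26 and -0.44. These counts moved with the threshold and the library left out: 21 nuclear members fell at an adjusted p of 0.01, 23 when H929 ethanol replicate 2 was omitted and 26 when H929 fluvastatin replicate 1 was.

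**Figure D2:**
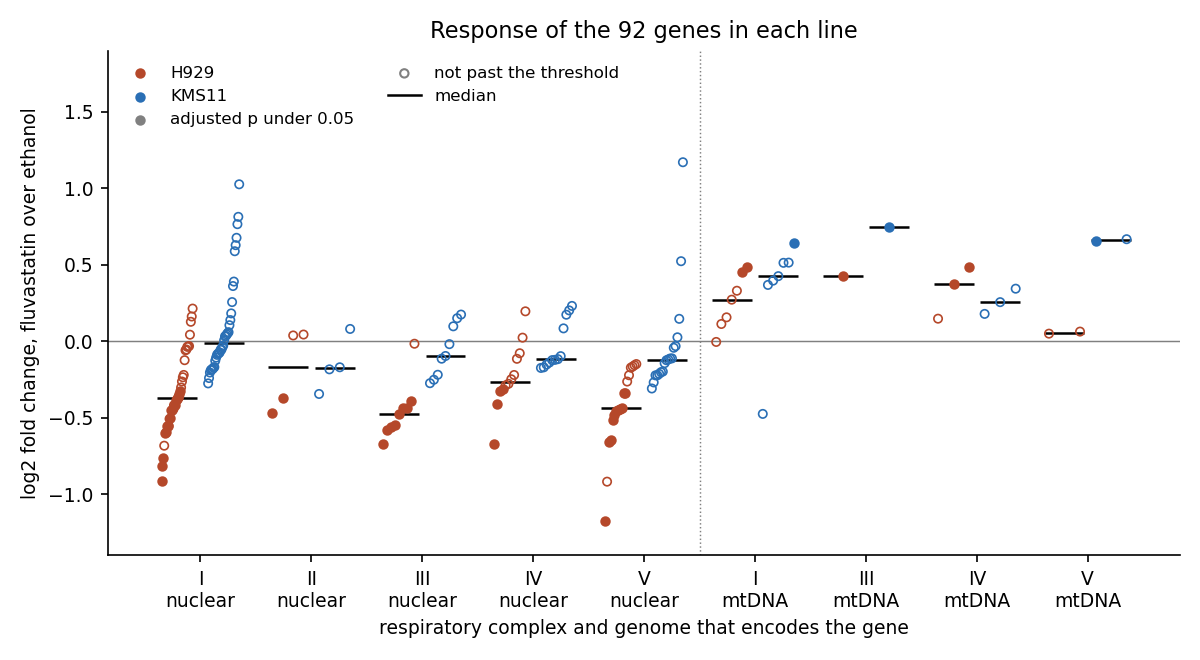
Log2 fold change of each of the 92 genes, fluvastatin over ethanol, by complex and by the genome that encodes it, in H929 and KMS11, from edgeR fits with 2 libraries a group; filled points passed an adjusted p of 0.05 and bars are medians. In H929 the nuclear medians ran from -0.48 to -0.17, and in both lines the mitochondrially encoded medians lay above 0.

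Complex V held the largest fall. ATP5MC1, 1 of 3 genes that encode the same mature subunit c of the rotating ring, measured 127 and 119.7 CPM with ethanol and 56.2 and 53.1 CPM with fluvastatin in H929, where CPM, the counts scaled to a fixed library total, used TMM factors. The fluvastatin libraries lay far below the ethanol libraries with no overlap, and the log2 fold change was -1.18 (SE 0.12, adjusted p = 5.19e-05). ATP5MC3, another gene for subunit c, measured 236 and 259 CPM with ethanol and 157 and 159.8 CPM with fluvastatin and changed by -0.65 (SE 0.09, adjusted p = 4.15e-04). The third, ATP5MC2, stood at 236 and 202 CPM with ethanol and 190.3 and 175 CPM with fluvastatin, and its change of -0.26 (SE 0.11, adjusted p = 0.0917) did not pass the test. Per length, the levels in H929 with ethanol were 145 ± 7.34 TPM (SD, n = 2) for ATP5MC1, 162 ± 8.35 TPM for ATP5MC3 and 204 ± 24.2 TPM for ATP5MC2, and with fluvastatin they were 62.7 ± 1.62, 101 ± 3.25 and 171 ± 8.31 TPM (SD, n = 2). The order of the 3 genes was the same in both groups, with wider steps after fluvastatin. The calls of ATP5MC1 and ATP5MC3 held without any 1 library and under all 10 other settings.

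In the catalytic F1 head of the ATP synthase, the genes of its alternating ring also fell in H929. ATP5F1A, which encodes subunit alpha, measured 1434 and 1561 CPM with ethanol and 1056 and 1086 CPM with fluvastatin, a change of -0.48 (SE 0.09, adjusted p = 0.00231). ATP5F1B, which encodes the catalytic subunit beta, measured 1082 and 1123 CPM with ethanol and 800.0 and 807 CPM with fluvastatin, a change of -0.46 (SE 0.09, adjusted p = 0.00227). All 4 fluvastatin values of the pair lay under the ethanol values of the same gene. ATP5MF, a small membrane subunit, measured 81.7 and 84.9 CPM with ethanol and 54.2 and 62.2 CPM with fluvastatin, with a log2 fold change of -0.52 (SE 0.10, adjusted p = 0.00245). In the peripheral stalk, which holds the head still, 3 of 4 members fell, with a range of -0.45 to -0.17 over the 4. ATP5MF-PTCD1, a read-through of ATP5MF into its neighbour, changed by -0.66 (SE 0.22, adjusted p = 0.0357), a call lost on omitting H929 ethanol replicate 1 or either H929 fluvastatin library, and reads could be divided between it and ATP5MF, so its value is uncertain.

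In complex III, all 3 of its core and Rieske genes and 4 of 5 genes for its small subunits fell in H929. UQCRH, the hinge subunit that helps cytochrome c dock, measured 299 and 325 CPM with ethanol and 199.5 and 217 CPM with fluvastatin, a change of -0.58 (SE 0.09, adjusted p = 7.81e-04). UQCRFS1, the Rieske iron-sulphur protein that hands electrons onward, measured 147 and 184 CPM with ethanol and 112 and 126 CPM with fluvastatin, a change of -0.48 (SE 0.12, adjusted p = 0.00961). Neither pair of groups overlapped. UQCR10, a small accessory subunit, changed by -0.56 (SE 0.14, adjusted p = 0.00868), and UQCRB, with a change of -0.02, was the complex III member that did not pass. UQCRHL, an intronless copy of UQCRH, measured 19.2 and 20.9 CPM with ethanol and 12.0 and 13.2 CPM with fluvastatin, a change of -0.67 (SE 0.14, adjusted p = 0.00329), and since reads of a copy and its source can be divided between them its value is uncertain. The call of UQCRFS1 was lost without H929 fluvastatin replicate 1 and without H929 ethanol replicate 2, and that of UQCR10 without the latter.

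In complex I the fall covered 3 of 7 core subunits, 4 of 11 NDUFB subunits of the distal membrane arm and 10 of 18 other accessory subunits. NDUFS6, an accessory zinc-binding subunit of the electron-input arm, measured 45.1 and 49.7 CPM with ethanol and 25.1 and 25.3 CPM with fluvastatin, a change of -0.91 (SE 0.12, adjusted p = 2.45e-04). NDUFS3, a core subunit, measured 58.2 and 59.5 CPM with ethanol and 38.3 and 39.4 CPM with fluvastatin, a change of -0.60 (SE 0.09, adjusted p = 5.17e-04). Both fluvastatin libraries lay below both ethanol libraries for each gene. NDUFS8, which holds iron-sulphur clusters, changed by -0.82 (SE 0.21, adjusted p = 0.0106) and NDUFA11, an accessory membrane subunit, by -0.77 (SE 0.22, adjusted p = 0.0201). The calls of NDUFS8 and NDUFA11 were lost when H929 ethanol replicate 1 or H929 fluvastatin replicate 2 was left out, while those of NDUFS6 and NDUFS3 held without any 1 library.

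Complex II, which links the tricarboxylic acid cycle to the chain as succinate dehydrogenase, held genes on either side of the threshold. SDHB, its iron-sulphur subunit, measured 116 and 127 CPM with ethanol and 84.0 and 91.9 CPM with fluvastatin, a change of -0.47 (SE 0.09, adjusted p = 0.003). SDHD, 1 of its membrane anchors, measured 140.2 and 163 CPM with ethanol and 114 and 120.3 CPM with fluvastatin, a change of -0.37 (SE 0.10, adjusted p = 0.0133). Both groups of both genes were separate, but the call of SDHD was lost on omitting fluvastatin replicate 1 or ethanol replicate 2 of H929, and that of SDHB was not lost on omitting any 1 library. SDHA, the flavoprotein that oxidises succinate, stood at 272 and 288 CPM with ethanol and 277 and 297 CPM with fluvastatin, and SDHC, the other anchor, at 158 and 161 CPM with ethanol and 159 and 169.6 CPM with fluvastatin, with overlapping groups. Their changes were 0.04 (SE 0.10, adjusted p = 0.785) and 0.04 (SE 0.09, adjusted p = 0.727), neither past the threshold.

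Nuclear genes of complex IV, cytochrome c oxidase, fell in the smallest share of any complex, 4 of 12, although the difference between complexes was not tested. COX7B, a small membrane subunit, measured 131 and 151 CPM with ethanol and 80.7 and 96.5 CPM with fluvastatin, a change of -0.67 (SE 0.13, adjusted p = 0.00251). COX6B1, which joins the monomers of the dimer, changed by -0.41 (SE 0.11, adjusted p = 0.0162), and its call was lost when H929 ethanol replicate 1 or H929 fluvastatin replicate 2 was left out. NDUFA4, counted here in complex IV where the protein is found despite its name, changed by -0.32 (SE 0.12, adjusted p = 0.0461), and its call was lost without any 1 of 5 libraries, which were both KMS11 ethanol libraries, both H929 ethanol libraries and H929 fluvastatin replicate 1.

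**Figure D3:**
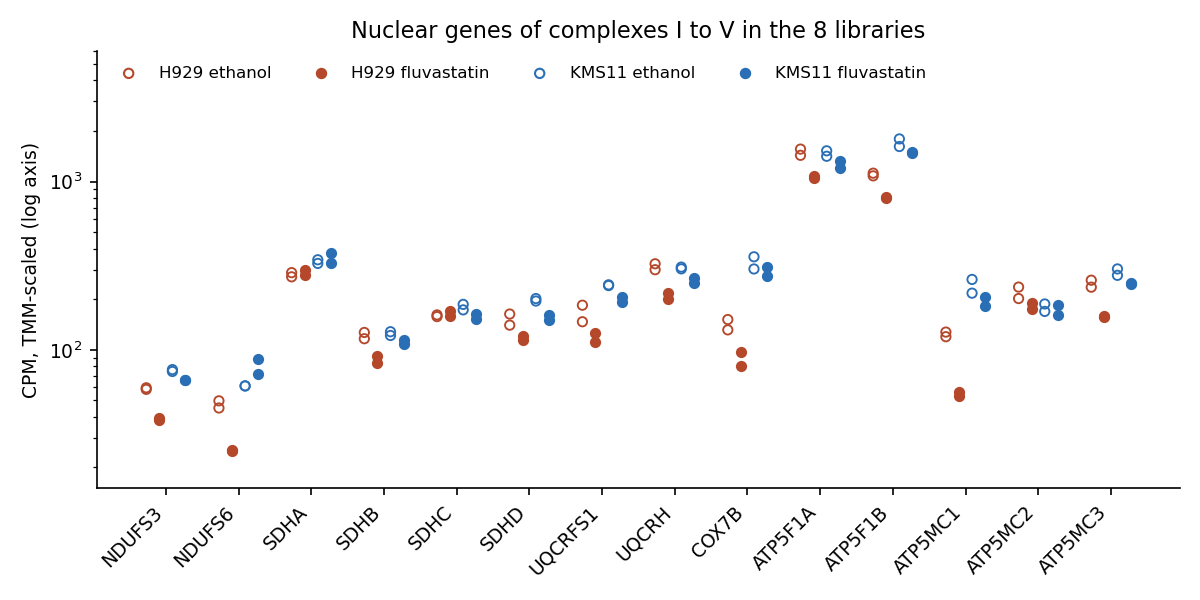
TMM-scaled CPM (log axis) of 14 nuclear genes in the 8 libraries, 2 points a group, open for ethanol and filled for fluvastatin. ATP5MC1 in H929 fell from 127 and 119.7 to 56.2 and 53.1 CPM, while SDHA and SDHC overlapped.

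To set sequence beside these falls, the RefSeq promoter windows (GRCh38.p14, 250 bases before to 50 after the start) of 64 nuclear members with an entry were searched on both strands for letters bound by known regulators of respiratory genes. These were GCGCA and GCGC with any 1 base between for NRF1, CCGGAAG for ETS factors such as GABPA, and AAGATGGCG for YY1, and no matches of different motifs overlapped in these windows. The NRF1 letters were in 16 of the 64 (25.0%) against 11.7% of 10642 tested genes with a window and 5.78% of 35116 windows in all. The ETS letters were in 20 (31.3%) against 19.2% and 10.3%, and the YY1 letters in 8 (12.5%) against 3.93% and 1.75%. Of 37 members with any of the 3, 20 fell in H929, and of 27 with none, 14 did, shares of 54.1% and 51.9%. The 130 bases before the start are shown for ATP5MC1, which fell most, and for 4 members that fell across both lines and had a match there, with the matched letters in capitals. They lie at chr17:48892657-48892786 on the plus strand for ATP5MC1, chr11:112086743-112086872 on the plus strand for SDHD, chr19:29213152-29213281 on the minus strand for UQCRFS1, chr1:46303568-46303697 on the plus strand for UQCRH and chr11:47578944-47579073 on the plus strand for NDUFS3.
ATP5MC1: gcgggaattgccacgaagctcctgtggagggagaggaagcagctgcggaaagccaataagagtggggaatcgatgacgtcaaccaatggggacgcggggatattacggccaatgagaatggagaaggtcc
SDHD: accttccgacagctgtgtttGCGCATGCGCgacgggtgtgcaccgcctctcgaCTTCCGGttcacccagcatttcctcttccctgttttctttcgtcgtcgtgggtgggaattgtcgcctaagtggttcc
UQCRFS1: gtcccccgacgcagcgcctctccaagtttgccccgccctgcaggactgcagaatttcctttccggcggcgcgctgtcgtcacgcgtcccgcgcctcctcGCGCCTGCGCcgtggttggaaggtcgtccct
UQCRH: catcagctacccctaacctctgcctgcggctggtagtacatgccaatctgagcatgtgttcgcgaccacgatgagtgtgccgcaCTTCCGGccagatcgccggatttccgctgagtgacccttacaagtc
NDUFS3: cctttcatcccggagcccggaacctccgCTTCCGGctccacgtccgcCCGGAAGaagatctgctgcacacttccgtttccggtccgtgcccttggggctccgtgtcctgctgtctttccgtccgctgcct
The ATP5MC1 stretch held none of the 3 motifs. SDHD held the NRF1 and the ETS letters, UQCRFS1 the NRF1 letters, UQCRH the ETS letters once and NDUFS3 the ETS letters on each strand.

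In KMS11, no nuclear member passed the test in either direction. The edgeR counts were 0 higher and 0 lower of 79, where 2.58% of all genes tested rose and 0.533% fell. DESeq2 called 4 nuclear members higher and 1 lower. The shares of all genes given here are those of the edgeR fit to all 8 libraries. The median log2 fold change of nuclear members was -0.08 against 0.00 for all genes, and 32 of the 79 had both fluvastatin libraries below both ethanol libraries, against 26.5% of all genes. Of the 42 nuclear members that fell in H929, 27 had a negative log2 fold change in KMS11. The median of all 79 there was also negative, so this sign was not particular to members that fell in H929. ATP5MC1 measured 217 and 262 CPM with ethanol and 205 and 182 CPM with fluvastatin there, both lower with fluvastatin, with a log2 fold change of -0.31 (SE 0.11, adjusted p = 0.157). SDHD measured 195 and 202 CPM with ethanol and 151 and 162 CPM with fluvastatin, and its change of -0.34 (SE 0.10, adjusted p = 0.0941) was the most negative of the nuclear members in this line. Without KMS11 fluvastatin replicate 2, edgeR called 11 nuclear members higher and 2 lower.

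Over both lines together, with a term for the line, 9 of 79 nuclear members fell and 0 rose, where 3.93% of all genes fell and 6.5% rose. Complex V held 5 of the 9: ATP5MC1 with a log2 fold change of -0.74 (SE 0.17, adjusted p = 0.0334), ATP5MC3 with -0.43 (SE 0.10, adjusted p = 0.034), ATP5MF with -0.36 (SE 0.10), ATP5F1A with -0.35 (SE 0.08) and ATP5F1B with -0.33 (SE 0.08). The others were UQCRH at -0.42 (SE 0.09) and UQCRFS1 at -0.37 (SE 0.10) in complex III, NDUFS3 at -0.39 (SE 0.10) in complex I and SDHD at -0.36 (SE 0.08) in complex II, so that no nuclear member of complex IV passed. Adjusted p-values of the 9 in edgeR ran from 0.0299 to 0.0478. All 9 calls were lost without any 1 of 5 libraries, which were KMS11 ethanol replicate 2 and each of the 4 H929 libraries, and 15 nuclear members fell without KMS11 fluvastatin replicate 2. With the replicate number as a block, 0 of the 9 calls were kept.

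Among the mitochondrially encoded genes, those past the test were higher with fluvastatin. These genes lie on both strands of a circular genome of 16569 bases and are cut from long shared transcripts, so that they are not independent of each other. Across both lines 5 of the 13 rose and 0 fell, where 6.5% of all genes rose, with a median log2 fold change of 0.36 against 0.03 for all genes. All 5 of these calls were lost under the replicate block and when replicate 2 of either H929 group was omitted. In H929, 5 rose and 0 fell (median 0.27), where 22.7% of all genes rose, and in KMS11 3 rose and 0 fell (median 0.43), where 2.58% rose. MT-ND4 and MT-CYB were called higher in each line. In KMS11, 12 of the 13 had both fluvastatin libraries above both ethanol libraries, a pattern of 26.9% of all genes, and in H929 8 did, a pattern of 37.5% of all genes.

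MT-CYB, the cytochrome b of complex III and the only subunit of that complex made in the mitochondrion, measured 190.0 and 164 CPM with ethanol and 222 and 254 CPM with fluvastatin in H929. In KMS11 it measured 85.8 and 94.1 CPM with ethanol and 166 and 136 CPM with fluvastatin. The fluvastatin libraries were higher in each line, and the changes were 0.43 (SE 0.13, adjusted p = 0.0209) and 0.75 (SE 0.13, adjusted p = 0.0134). MT-ND4, a proton-pumping subunit of complex I, measured 179.7 and 163 CPM with ethanol and 222 and 258 CPM with fluvastatin in H929, a change of 0.48 (SE 0.13, adjusted p = 0.012). Its values in KMS11 were 77.8 and 83.4 CPM with ethanol and 141 and 111 CPM with fluvastatin, a change of 0.64 (SE 0.13, adjusted p = 0.028). The groups did not overlap in either line. The H929 calls of both genes were lost when H929 ethanol replicate 2 or H929 fluvastatin replicate 2 was left out, and their KMS11 calls without KMS11 ethanol replicate 1 and without KMS11 ethanol replicate 2, that of MT-ND4 also without KMS11 fluvastatin replicate 1.

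The genes of the catalytic core of complex IV were the most abundant of the mitochondrially encoded members, with 84.6% to 88.1% of their counts. MT-CO1, which holds the site where oxygen is reduced, measured 2811 and 2776 CPM with ethanol and 3602 and 4224 CPM with fluvastatin in H929, a change of 0.49 (SE 0.10, adjusted p = 0.00358) that held without any 1 library. MT-CO2, which takes electrons from cytochrome c, measured 1192 and 1022 CPM with ethanol and 1381 and 1487 CPM with fluvastatin, a change of 0.37 (SE 0.10, adjusted p = 0.0169) that was lost on omitting replicate 2 of either H929 group (adjusted p up to 0.141 in edgeR). In KMS11 the changes of 0.26 (SE 0.10, adjusted p = 0.181) for MT-CO1 and 0.34 (SE 0.10, adjusted p = 0.109) for MT-CO2 did not pass, although both fluvastatin libraries lay above both ethanol libraries for each. MT-CO3, the third core subunit, stood at 2148 and 2154 CPM with ethanol and 2239 and 2527 CPM with fluvastatin in H929 and 1986 and 1927 CPM with ethanol and 2199 and 2230.2 CPM with fluvastatin in KMS11, with changes of 0.15 (SE 0.09, adjusted p = 0.211) and 0.18 (SE 0.09, adjusted p = 0.266). Its values were also higher with fluvastatin in each line, without passing the test.

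Among the other complex I genes, MT-ND5, at the far end of the membrane arm, changed by 0.46 (SE 0.13, adjusted p = 0.0164) in H929 and 0.40 (SE 0.13, adjusted p = 0.123) in KMS11. Its H929 call was lost on omitting the same H929 libraries, ethanol replicate 2 or fluvastatin replicate 2. MT-ND3 changed by 0.33 (SE 0.14) and 0.43 (SE 0.14), MT-ND2 by 0.16 (SE 0.12) and 0.37 (SE 0.11), and MT-ND1 by -0.00 (SE 0.15) and 0.51 (SE 0.14), none past the threshold. These are all membrane subunits on the path of proton pumping. MT-ND6, the 1 member on the other strand of the mitochondrial genome, had 5.07 and 3.76 CPM with ethanol and 4.13 and 5.44 CPM with fluvastatin in H929 and 5.45 and 5.83 CPM with ethanol and 3.39 and 4.67 CPM with fluvastatin in KMS11. Its changes were 0.11 (SE 0.24, adjusted p = 0.746) and -0.48 (SE 0.24, adjusted p = 0.266), and it was the only mitochondrially encoded member lower in both KMS11 fluvastatin libraries.

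Of the pair of ATP synthase genes in mitochondrial DNA, MT-ATP6 passed the test in KMS11 and MT-ATP8 in neither line. MT-ATP6, the channel subunit that passes protons to the ring, measured 100.4 and 109 CPM with ethanol and 182 and 148 CPM with fluvastatin in KMS11, a change of 0.66 (SE 0.11, adjusted p = 0.0159). This call was lost with limma and on omitting KMS11 fluvastatin replicate 1 or either KMS11 ethanol library, where the adjusted p in edgeR reached 0.242. In H929 its values overlapped at 224 and 206 CPM with ethanol and 215 and 235 CPM with fluvastatin, a change of 0.06 (SE 0.11, adjusted p = 0.692). The difference between the lines was 0.59 (SE 0.16, adjusted p = 0.0267), and this call was lost without any 1 of 5 libraries, which were both KMS11 ethanol libraries, KMS11 fluvastatin replicate 1, H929 ethanol replicate 1 and H929 fluvastatin replicate 1. MT-ATP8, its partner, changed by 0.67 (SE 0.16, adjusted p = 0.0577) in KMS11 and 0.05 (SE 0.16, adjusted p = 0.832) in H929. These genes share bases on one RNA, at chrM:8527-8572 of GRCh38, and so do MT-ND4L and MT-ND4 at chrM:10760-10766, and how the authors' counting assigned reads over the overlaps was not tested. The overlaps are shown on the plus strand with the start codon of the downstream gene and the stop codon of the upstream gene in capitals.
MT-ATP8 and MT-ATP6: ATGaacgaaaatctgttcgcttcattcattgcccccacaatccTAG
MT-ND4L and MT-ND4: ATGcTAA
The first overlap is 46 bases long and the second 7. MT-ND4L changed by 0.27 (SE 0.14) in H929 and 0.51 (SE 0.14) in KMS11, values smaller than those of MT-ND4 and not past the threshold.

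**Figure D4:**
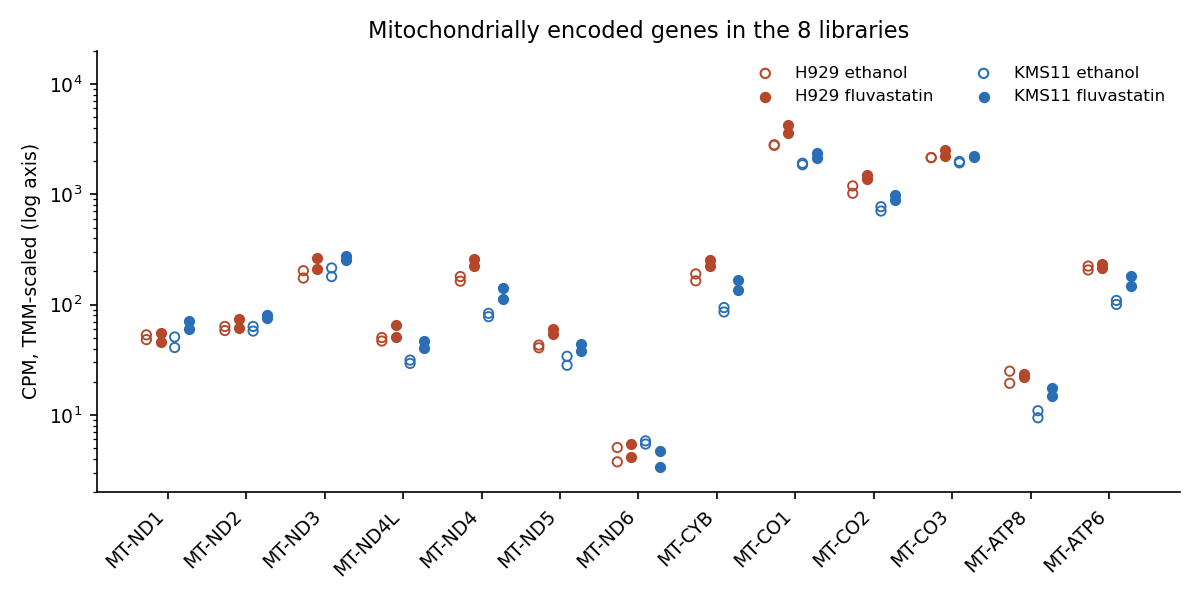
TMM-scaled CPM (log axis) of the 13 mitochondrially encoded genes in the 8 libraries, 2 points a group, open for ethanol and filled for fluvastatin. Filled points lie above open ones in KMS11 for all but MT-ND6, and the levels with ethanol were lower in KMS11 than in H929 for 8 genes past the test.

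The responses of the lines differed for 23 members, all more positive in KMS11 than in H929. Of the 79 nuclear members, 22 passed the test of the difference and 0 passed in the other direction, where 11.7% of all genes tested passed upward and 11.5% downward. Complex I held 13 of the 22, complex III 4 and complex V 5, and complexes II and IV none. The median difference was 0.30 on the log2 scale against 0.00 for all genes. For ATP5MC1 the difference was 0.87 (SE 0.16, adjusted p = 0.00495), for NDUFS6 1.302 (SE 0.16, adjusted p = 8.04e-04), for NDUFS8 1.45 (SE 0.30, adjusted p = 0.00795) and for NDUFA11 1.44 (SE 0.32, adjusted p = 0.0113), and these 4 calls held without any 1 library. NDUFS6 went up in both KMS11 fluvastatin libraries, at 61.0 and 61.0 CPM with ethanol and 87.7 and 72.3 CPM with fluvastatin, against its fall in H929. The count of nuclear members moved with the library left out, falling to 4 when KMS11 ethanol replicate 1 was omitted and to 9 for replicate 2 of the same group. Omitting an H929 library left 10 (ethanol replicate 1), 11 (ethanol replicate 2), 14 (fluvastatin replicate 1) or 6 (fluvastatin replicate 2).

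The GC content of the exons moved with these differences. The 22 nuclear members whose responses differed had a median GC content of 54.9%, against 45.8% for the other 57. Over the 79 nuclear members, which share the same libraries, the log2 fold change in KMS11 rose with GC content (Pearson r = 0.80, Spearman rho = 0.65), while in H929 it fell (r = -0.53, rho = -0.50). Over all 13129 genes the same r was 0.33 in KMS11 and -0.11 in H929, and rho was 0.48 and -0.17. At a limit of 58% GC chosen after the values were seen, 11 nuclear members summed to 357 and 365 CPM in KMS11 with ethanol and to 584 CPM in fluvastatin replicate 1 but 378 CPM in fluvastatin replicate 2, so that 1 library stood apart. In H929 the same 11 summed to 783 and 688 CPM with ethanol and to 543 and 455 CPM with fluvastatin.

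ATP5F1D, the delta subunit of the F1 head, shows how far 1 library could stand from the others. With 67.6% GC, it measured 4.44 and 4.46 CPM with ethanol and 15.5 and 4.80 CPM with fluvastatin in KMS11 and 39.1 and 31.9 CPM with ethanol and 22.5 and 15.1 CPM with fluvastatin in H929. KMS11 fluvastatin replicate 1 lay far above the other 3 KMS11 libraries. The difference of responses was 2.09 (SE 0.59, adjusted p = 0.0311). Its call was kept without KMS11 fluvastatin replicate 1. It was lost without any 1 of 4 other libraries, which were both KMS11 ethanol libraries, H929 ethanol replicate 1 and H929 fluvastatin replicate 2. DESeq2 and limma also did not call it. NDUFS8 had the same shape at 61.6% GC, with 14.4 and 14.96 CPM with ethanol and 28.7 and 16.9 CPM with fluvastatin in KMS11. With a GC trend removed from each library, 48 nuclear members passed the test of the difference, 59 fell in H929 and 1 fell in KMS11, while 12 of 13 mitochondrially encoded members rose in KMS11. The shares of all genes called under this setting are not given here, so these counts are not read as particular to the members. The part of GC content in the differences was not tested beyond this correction.

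**Figure D5:**
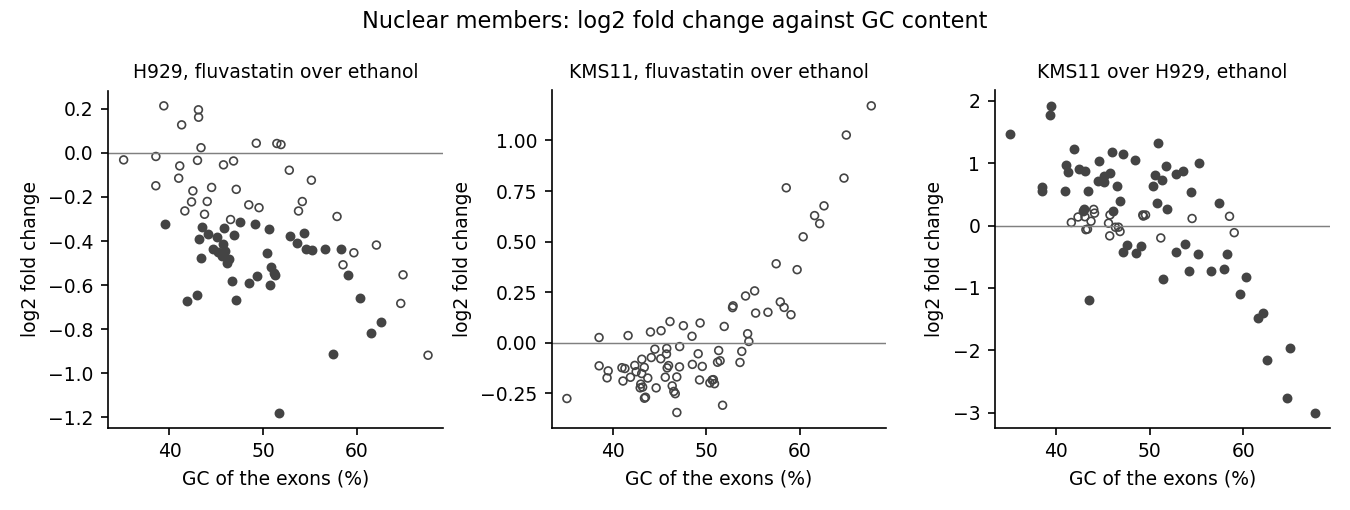
Log2 fold change of the 79 nuclear genes against the GC content of their exons (%), for fluvastatin over ethanol in H929 and KMS11 and for KMS11 over H929 with ethanol, filled where the adjusted p was under 0.05. Values fell with GC content in H929 (r = -0.53), rose in KMS11 (r = 0.80) and fell in the comparison of the lines (r = -0.69).

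With ethanol, 37 nuclear members were higher and 21 lower in KMS11 than in H929, where 35.6% of all genes tested were higher and 36.4% lower. The median was 0.17 for nuclear members and 0.67 for those of complex V, of which 12 of 18 were higher, against -0.02 for all genes. ATP5MF measured 81.7 and 84.9 CPM in H929 and 199 and 219 CPM in KMS11, a log2 difference of 1.33 (SE 0.10, adjusted p = 1.45e-06), and ATP5PF, a peripheral stalk subunit, differed by 1.19 (SE 0.11, adjusted p = 7.76e-06). ATP5PB, another stalk subunit, went the other way, at 273 and 331 CPM in H929 and 127 and 136 CPM in KMS11, a difference of -1.20 (SE 0.12, adjusted p = 9.09e-06). NDUFA4 in complex IV, NDUFB5 in complex I and COX7B in complex IV were higher in KMS11 by 1.92 (SE 0.12), 1.77 (SE 0.11) and 1.22 (SE 0.13). No group overlapped for these genes.

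The lowest values in KMS11 were those of GC-rich genes. ATP5F1D differed by -2.996 (SE 0.44, adjusted p = 1.54e-04), NDUFS7, a core subunit of complex I with 64.7% GC, by -2.76 (SE 0.37, adjusted p = 8.37e-05), NDUFA11 by -2.15 (SE 0.23, adjusted p = 1.91e-05) and NDUFB7 with 64.9% GC by -1.96 (SE 0.38, adjusted p = 0.00103). With the GC trend removed, the nuclear median was -0.03 with 33 higher and 34 lower, and with limma on log2(TPM + 1) it was 0.83 with 61 higher and 9 lower, where the median of all genes was 0.31. The higher level of the nuclear genes as a group in KMS11 thus depended on the processing, with almost no direction left once the GC trend was removed. The mitochondrially encoded members were lower in KMS11 for 8 of 13 and higher for 0, with a median of -0.57, and for 12 of 13 with the GC trend removed, but limma called 4 lower and 5 higher. MT-ATP6 measured 224 and 206 CPM in H929 and 100.4 and 109 CPM in KMS11, a difference of -1.04 (SE 0.12, adjusted p = 2.31e-05), and MT-CYB and MT-ND4 differed by -0.98 (SE 0.13) and -1.09 (SE 0.13).

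Genes that build the complexes or read the mitochondrial genome were set beside the subunits. Of 18 complex I assembly factors tested, 7 fell and 0 rose in H929, and of 18 factors for complexes II, III and V, 7 fell and 1 rose, where 19.3% of all genes fell. NDUFAF8, which helps assemble complex I, changed by -1.01 (SE 0.11, adjusted p = 7.40e-05) and UQCC2, which helps make cytochrome b of complex III, by -0.92 (SE 0.13, adjusted p = 3.48e-04). SDHAF4, an assembly factor of complex II, rose by 0.89 (SE 0.19, adjusted p = 0.0037). Of 26 complex IV assembly factors, 9 fell and 1 rose, led by TMEM177 at -1.09 (SE 0.18, adjusted p = 0.00113). In KMS11 0 of these 62 factors passed in edgeR, where 2.58% of all genes rose and 0.533% fell.

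Genes that handle mitochondrial messages were set beside the 13 mitochondrially encoded members. Of 30 nuclear genes for mitochondrial transcription and RNA processing, 16 fell and 0 rose in H929 (median -0.39), where 19.3% of all genes fell, and 8 fell and 0 rose across both lines (median -0.31), where 3.93% did. In KMS11 0 passed, where 2.58% of all genes rose and 0.533% fell. SLIRP, which with LRPPRC stabilises mitochondrial messages, measured 41.2 and 51.0 CPM with ethanol and 19.9 and 24.4 CPM with fluvastatin in H929, a change of -1.06 (SE 0.15, adjusted p = 4.09e-04). TFAM, which packages mitochondrial DNA and starts its transcription and was chosen after its values were seen, measured 80.7 and 95.0 CPM with ethanol and 54.5 and 64.8 CPM with fluvastatin, a change of -0.56 (SE 0.12, adjusted p = 0.00529), and across both lines -0.44 (SE 0.10, adjusted p = 0.0342). For each gene the fluvastatin libraries were below the ethanol libraries in H929. PNPT1, part of the mitochondrial RNA degradation machinery, changed by -0.76 (SE 0.17, adjusted p = 0.00472) in H929.

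Among 11 nuclear regulators of respiratory genes, 3 rose and 3 fell in H929, shares of 27.3% each against 22.7% and 19.3% of all genes. PPARGC1A, the coactivator PGC-1 alpha, measured 7.05 and 6.08 CPM with ethanol and 14.8 and 16.5 CPM with fluvastatin in H929 and 9.99 and 12.0 CPM with ethanol and 14.6 and 14.8 CPM with fluvastatin in KMS11. It rose by 1.25 (SE 0.16, adjusted p = 2.54e-04) in H929 and 0.83 (SE 0.19, adjusted p = 0.0312) across both lines, while its change of 0.42 (SE 0.15, adjusted p = 0.161) in KMS11 did not pass. The response was smaller in KMS11, with a difference of -0.83 (SE 0.22, adjusted p = 0.024) between the lines. Its relatives fell in H929, PPARGC1B by -0.53 (SE 0.13, adjusted p = 0.00743) and PPRC1 by -0.68 (SE 0.12, adjusted p = 0.00178), and so did NRF1, whose letters were searched above, by -0.47 (SE 0.14, adjusted p = 0.0254). MYC and NFE2L2 were higher in both H929 fluvastatin libraries, at 189 and 194 CPM against 155 and 137 CPM with ethanol for MYC. NFE2L2 stood at 112 and 114 CPM against 87.0 and 84.9 CPM. In KMS11 MYC was lower in both fluvastatin libraries, at 291 and 257 CPM against 351 and 393 CPM with ethanol. Of 17 tricarboxylic acid cycle and linked enzymes 8 fell and 2 rose in H929, where 19.3% of all genes fell and 22.7% rose. MDH2, malate dehydrogenase, changed by -0.74 (SE 0.10, adjusted p = 3.67e-04). Among 6 subunits and partners outside the symbol rule, CYCS, the cytochrome c that shuttles electrons from complex III to complex IV, measured 497 and 645 CPM with ethanol and 318 and 380.0 CPM with fluvastatin in H929, a change of -0.71 (SE 0.15, adjusted p = 0.00415), and NDUFAB1, an acyl carrier protein in complex I, changed by -0.67 (SE 0.12, adjusted p = 0.00126). The rest of this list did not all go that way in H929. ATP5IF1 was higher in both fluvastatin libraries, at 110 and 105 CPM against 90.5 and 92.6 CPM with ethanol. So was NDUFA4L2, near the floor, while HIGD2A was lower in both and HIGD1A overlapped.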

How the data were processed

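RNA of 8 libraries, 2 per line and treatment, was grouped by the labels. Per the labels and the methods, the authors aligned reads to hg38 with STAR 2.5.2b and deposited expected counts and TPM from RSEM 1.3.0, TPM being scaled by effective length. No gene filter is given in the sources used here, nor whether counting used strand. Symbols, biotypes and exon GC content came from GENCODE 44, which holds 57392 of 58219 listed genes.

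The expected counts, rounded to whole numbers, went into edgeR 4.0.16 (R 4.3.3). Protein-coding genes were kept by filterByExpr (minimum count 10, minimum total 15), scaled by TMM and tested by quasi-likelihood F tests, whose p-values were adjusted by Benjamini-Hochberg over 13129 genes (threshold 0.05). The model held line and treatment, or the 4 group means. SE is the log2 fold change divided by the square root of F. Alternatives used DESeq2 1.42.0 and limma 3.58.1 with a pseudocount of 1. On simulated data, 92% of 200 genes changed by 1 on the log2 scale were recovered within H929, with 6.6% false calls. Those genes were well counted and the libraries were drawn independently. The rates therefore do not describe smaller changes or libraries that deviate together. Members and lists were chosen with earlier results of these data known. Text names the members with the 3 largest calls per complex and direction, all mitochondrially encoded and complex II members, duplicated forms, and up to 5 genes a list. Promoters are RefSeq's.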

Additional observations from a re-analysis of the deposited data

Results flagged for a closer look

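H929 and KMS11 responded differently to fluvastatin in 22 nuclear members and 1 mitochondrially encoded member, by edgeR's interaction test at an adjusted p of 0.05, and each difference (log2 fold change in KMS11 minus that in H929) was positive. In complex I the differences were 0.56 for NDUFA2, 1.27 for NDUFA3, 0.60 for NDUFA6, 1.44 for NDUFA11, 1.01 for NDUFA13, 0.44 for NDUFB8, 0.69 for NDUFB10, 0.42 for NDUFS3, 0.49 for NDUFS5, 1.302 for NDUFS6, 1.45 for NDUFS8, 0.81 for NDUFV1 and 0.51 for NDUFV2. In complex III they were 0.66 for UQCR10, 0.59 for UQCR11, 0.65 for UQCRHL and 0.45 for UQCRQ. In complex V they were 2.09 for ATP5F1D, 0.87 for ATP5MC1, 0.42 for ATP5MC3, 0.59 for ATP5ME and 1.18 for ATP5MF-PTCD1. The mitochondrially encoded MT-ATP6 differed by 0.59. GC content and 1 KMS11 library moved with many of these values, as given in the report, and their part was not tested beyond the GC correction. The ATP5MC3 call was lost on omitting any 1 library and with DESeq2, median-of-ratios scaling and limma. With 1 library left out, the UQCRHL call was kept only without KMS11 fluvastatin replicate 2. The UQCR10 call was kept only without that library or without KMS11 ethanol replicate 2.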

How the results depend on the processing

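Counts of members called give higher first and lower second. With the settings of the report they were 5 and 9 across both lines, 5 and 42 in H929, 3 and 0 in KMS11, 23 and 0 for the difference of responses, and 37 and 29 for KMS11 over H929 with ethanol. With the GC trend removed they were 6 and 10, 5 and 59, 12 and 1, 52 and 0, and 33 and 46. With GC and length trends removed they were 8 and 8, 13 and 41, 12 and 2, 35 and 0, and 38 and 33. With DESeq2 they were 7 and 17, 6 and 43, 10 and 1, 19 and 0, and 36 and 29. With no filter on low counts they were 5 and 9, 6 and 47, 13 and 0, 26 and 0, and 35 and 29. With limma on log2(TPM + 1) they were 2 and 17, 5 and 38, 1 and 0, 6 and 0, and 66 and 13. At an adjusted p of 0.01 they were 0 and 0, 1 and 21, 0 and 0, 4 and 0, and 31 and 22. Without the term for cell line 0 and 0 were called across both lines. Median-of-ratios scaling gave 5 and 9, 5 and 41, 3 and 0, 19 and 0, and 36 and 29, and leaving mitochondrially encoded genes out of library sizes gave the counts of the report. The cause of these shifts was not tested.

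With 1 library left out, calls across both lines ran from 0 to 5 higher and from 0 to 15 lower, in H929 from 1 to 7 and from 23 to 55, in KMS11 from 0 to 18 and from 0 to 2, for the difference of responses from 4 to 27 and from 0 to 1, and with ethanol from 30 to 38 and from 20 to 29. The replicate block gave 0 and 0, 6 and 53, 14 and 1, 33 and 2, and 39 and 29, and the replicate block with the GC trend removed gave 0 and 0, 6 and 62, 18 and 2, 62 and 0, and 34 and 46. Same-numbered libraries deviated together in H929 (r = 0.774 across genes) but not in KMS11 (r = -0.0782). The fits of the report did not take the numbers as pairs in either line, so in H929 they left this shared deviation in the spread.

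With protein-coding genes as the denominator, the mitochondrially encoded members took 0.712% and 0.683% with ethanol and 0.834% and 0.940% with fluvastatin in H929, and 0.519% and 0.528% against 0.670% and 0.621% in KMS11. The log2 ratio of their summed level in KMS11, fluvastatin over ethanol, was 0.16 from TPM and 0.31 from CPM per kilobase.

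No named member whose fold change is printed above turned its direction while past the threshold. For KMS11 over H929 with ethanol, this check was limited to the printed members after the values were seen. Of all 66 members called between the lines with ethanol, 15 changed sign under at least 1 setting, 10 of them with limma on TPM, 9 with GC and length trends removed and 4 with the GC trend removed, so those directions depend on the processing. With 2 libraries a group, no exact permutation test of a single gene within a line could reach the threshold, and each p-value rests on spread shared across genes.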
